A study of Mus musculus with 18 samples.

Results

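The 6 genes examined here are mouse genes whose transcripts resemble the place where the ribozyme PS473 pairs with the mRNA of Cd274, the gene of the immune checkpoint ligand PD-L1. R3hdm4, Larp4b, Cep83os, Exoc3l4, Arhgap26 and 3830408C21Rik were taken by name from the 41079 genes of the expression table. Each holds a site that differs from the 16-base PS473 target at 1 or 2 bases. The rule reads the sequence and not the expression values, but the sequence alone does not give the list: 11 other genes also hold a best site with 1 or 2 mismatches and were not listed, and the sources used here give no reason. The genes were listed with earlier results of these data known, and the others are described at the end. The question addressed here is whether transcripts with such a site were less abundant in tumors given PS473 than in tumors given none or the inactive control M5.

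The tumors were B16F10 melanomas, a mouse melanoma cell line, grown under the skin of female C57BL/6 mice. Intratumoral injections began on day 6, at a tumor volume of about 50 mm3, and were repeated at 2-day intervals. The tumors were taken 48 hours after the last injection. There were 18 tumors in 6 groups of 3, and poly(A) RNA of each tumor was sequenced. The labels name no genotype beyond the strain. PS473 was given to 3 groups, as the free ribozyme (Free PS473), with cationic polymers (PS473@CPs) or inside a manganese metal-organic framework (PS473@NKMOF-101-[Mn]). The other 3 groups received PBS, the empty framework (NKMOF-101-[Mn]) or M5 in the framework (M5@NKMOF-101-[Mn]), so that each arm held 9 tumors. For the last of the PS473 groups the sample titles write 102 where the treatment text has 101, and the treatment text was followed. None of the 6 groups received the polymers alone, so an effect of the polymers cannot be told apart from one of PS473 in PS473@CPs tumors. The framework was also unevenly spread: most tumors of the arm without PS473 received it, and most tumors of the PS473 arm did not. A difference between the arms, or its absence, therefore mixes PS473 with the carrier. The comparisons made inside the framework, described further below, hold the carrier the same.

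Pistol ribozymes are small RNAs that fold into a pseudoknot, pair with a substrate through arms on both sides of a GU and cut the strand there. Designed versions can be aimed at a chosen RNA by changing the arms, and any other transcript that pairs with both arms around a GU is a candidate for unintended cutting. The listed genes do unrelated work. Larp4b encodes an RNA-binding protein of the La-related family that acts on mRNA stability and translation, R3hdm4 a protein with the R3H domain of single-stranded nucleic acid binding, Exoc3l4 a relative of the exocyst subunit Exoc3, and Arhgap26 a GTPase-activating protein with a membrane-bending BAR domain. Cep83os and 3830408C21Rik are noncoding.

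PS473 and M5 are shown as the study lists them, because their arms define the sites. Capitals mark the 2 bases that differ, G40U and C41A in M5, with position 1 at the ribozyme's 5′ end.
PS473: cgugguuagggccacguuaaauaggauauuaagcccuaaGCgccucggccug
M5: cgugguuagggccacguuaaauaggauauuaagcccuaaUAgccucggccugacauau
The arm at the 3′ end is 10 bases long in this PS473 and 16 bases long in M5, which pairs with 6 further bases of Cd274. The study also made forms of PS473 with a longer arm, and in its naming the PS473 of later experiments, which include these tumors, is the form with an arm of 16 base pairs. It describes the arms of M5 as the same as those of PS473, so the 2 need not have differed in arm length in the tumors. The 16-base target is the stretch matched by the arms of PS473 as printed. For the form with the longer arm, the study reported that a BLAST search of mouse transcripts detected no complementarity beyond PD-L1. The settings of that search are not given. The search made here used the shorter printed arm and allowed mismatches, so the results of the searches are not alike in kind.

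The sites follow, written as the DNA letters of the transcript. The GU stands at bases 11 and 12, with 10 bases before it and 4 after it. Capitals mark the bases that differ from the Cd274 target, which has its G at position 473 of the coding sequence.
Cd274 target: caggccgagggttatc
R3hdm4 site: caggccAagggttatc
Larp4b site: caggAcgagggttTtc
Cep83os site: caggccTGgggttatc
Exoc3l4 site: caggccgagggtGatT
3830408C21Rik site: caAgcAgagggttatc
Position 1 is the first base of each line. R3hdm4 carries G7A, Larp4b C5A and A14T, Cep83os G7T and A8G, Exoc3l4 T13G and C16T, and 3830408C21Rik G3A and C6A. The R3hdm4 site is the only one in 141767 annotated transcripts with 1 mismatch, and Cd274 is the only gene with a full match. Exoc3l4 keeps the whole 5′ side and has the longest uninterrupted match around the GU, 12 bases, while Larp4b and Cep83os keep 8, R3hdm4 9 and 3830408C21Rik 10. Of the 6 bases further upstream that only the longer arm reaches, R3hdm4 and Larp4b match 0, Cep83os and Exoc3l4 2 and 3830408C21Rik 3. Over the whole longer target of 22 bases, 14 match in Larp4b, 15 in R3hdm4, 16 in Cep83os and Exoc3l4 and 17 in 3830408C21Rik. By that count R3hdm4 is not the nearest match. These counts take a G-U wobble pair with the arm as a mismatch. A8G in Cep83os and C16T in Exoc3l4 would each still allow such a pair, and the other changes named here would not.

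The sites lie at these places in the GRCm38 genome, from a match to the GENCODE M21 transcripts. The R3hdm4 site (chr10:79914801-79914816, minus strand) is in 1 of 8 annotated transcripts, a single-exon form with retained introns, and in an intron of all 4 coding transcripts. The Larp4b site (chr13:9171957-9171972, plus strand) is in 3 of 7 transcripts and in the 3′ UTR of 2 of the 4 coding ones. The Exoc3l4 site (chr12:111423683-111423698, plus strand) is in 4 of 12 transcripts and in the coding sequence of 3 of the 8 coding ones. The Cep83os site (chr10:94676286-94676301, minus strand) is in exon 3 of the only annotated transcript, and the 3830408C21Rik site (chr13:107055060-107055075, plus strand) in exon 2 of 1 of 6 transcripts.

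The plot of transcripts with a site shows these positions. The expression values are per gene, so transcripts with and without the site cannot be told apart. How reads of different transcripts were combined is not given. The deposited gene lengths of R3hdm4 (1926 bases) and Cep83os (4135 bases) are shorter than their annotated transcripts with the site (3509 and 6566 bases). Whether the stretch with the site was counted for these genes is therefore not known. For R3hdm4, 0 of the 4 annotated coding transcripts hold the site.

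**Figure D1:**
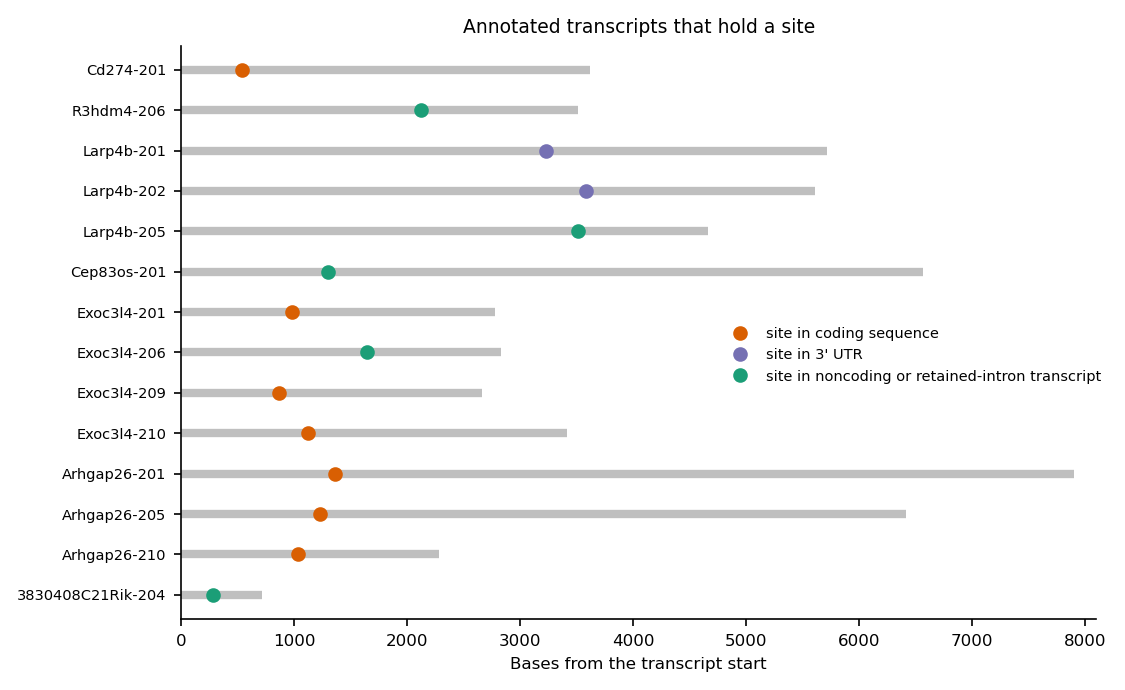
Annotated transcripts that hold a site (grey bars, length in bases from the transcript start) with the position of the site (point, coloured by the part of the transcript). The sites of Larp4b coding transcripts are in the 3′ UTR, those of Exoc3l4 and Arhgap26 coding transcripts in the coding sequence, and the R3hdm4 site is in 1 transcript with retained introns.

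Arhgap26 also has 2 mismatches, both 5′ of the GU, with 8 matching bases around the GU. A G-U wobble pair with the arm would still be possible at 1 of the 2. Its site spans the junction of exons 10 and 11, so it is not an unbroken stretch of the genome. It is in 3 of 13 annotated transcripts and in the coding sequence of 3 of the 7 coding ones. Of the 6 bases further upstream 2 match, and of the 22 bases of the longer target 16 match. Its sequence is not shown here.

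The tumors held between 17212000 and 28401000 assigned fragments each, as recovered from the steps between low values. Melanocyte lineage genes, with all 10 listed markers in the table, summed to between 5029 and 7975 FPKM in the 18 tumors. The skin epithelium list (13 genes) summed to between 1.76 and 5633 FPKM, and both extremes were in tumors given PS473. The leukocyte list (12 genes) summed to between 49.8 and 390.4 FPKM, the endothelial list (5 genes) to between 17.7 and 79.8, the fibroblast list (6 genes) to between 28.3 and 642.0, and the skeletal muscle list (5 genes) to between 2.04 and 41.9. With the skin score as a covariate, the log2 fold change of R3hdm4 between the arms was 0.026 and that of Larp4b −0.053, and 0 of 4 members tested were called. In bulk tumors, fewer cells that express a gene and less RNA per cell cannot be told apart.

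All 6 genes were detected in every tumor, at levels far apart. R3hdm4 had the highest mean over the 18 tumors, 45.0 FPKM, above 89.3% of the 12357 genes tested. Cep83os averaged 2.92, Larp4b 2.69 and Exoc3l4 1.84 FPKM. The 3830408C21Rik mean was 0.578 FPKM and the Arhgap26 mean 0.227 FPKM, both under the minimum of 1 FPKM used for the tests, so that 4 of the 6 genes were tested there. FPKM is a level per gene length. The deposited lengths of Larp4b (47949 bases) and Arhgap26 (38154 bases) are much longer than their annotated transcripts with a site (at most 5720 and 7898 bases). This lowers their FPKM against other genes. The lengths of R3hdm4 and Cep83os are instead shorter than such transcripts, as given above. Arhgap26 rested on about 109 to 285 fragments per tumor and 3830408C21Rik on about 10 to 36, against 1468 to 2718 for R3hdm4.

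No difference in the listed transcripts was detectable between tumors given PS473 and the others. The 95% intervals of the difference between the arms included 0 for all 6 genes. The lower bound of the fold (tumors given PS473 over the rest, on FPKM + 1) was 0.943 for R3hdm4, 0.887 for Larp4b, 0.836 for Cep83os and 0.887 for Exoc3l4. The added 1 draws these folds and bounds toward 1, most at low FPKM. With 0.1 added in place of 1, the log2 fold change went from −0.056 to −0.074 for Larp4b and from −0.057 to −0.078 for Cep83os. That of Exoc3l4 went from 0.0038 to 0.0086. For the genes below 1 FPKM, the ratio of the mean FPKM was 0.891 for Arhgap26 and 1.07 for 3830408C21Rik.

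R3hdm4, with the nearest match to the 16-base target, was measured at 38.1, 40.9 and 45.0 FPKM in PBS tumors, at 44.6, 45.9 and 43.6 in NKMOF-101-[Mn] tumors and at 50.8, 46.1 and 44.8 in M5@NKMOF-101-[Mn] tumors. It was measured at 50.8, 45.8 and 42.0 FPKM in Free PS473 tumors, at 46.1, 38.9 and 49.7 in PS473@CPs tumors and at 45.6, 45.2 and 46.1 in PS473@NKMOF-101-[Mn] tumors. All 9 values of tumors given PS473 lay inside the range of the other 9. The mean was 45.6 ± 3.59 FPKM (SD, n = 9) with PS473 and 44.4 ± 3.54 FPKM (SD, n = 9) without it. The log2 fold change was 0.037 ± 0.057 (SE; 95% interval −0.084 to 0.16; limma, Benjamini-Hochberg adjusted p = 1.00; two-sided exact permutation p = 0.497). The group means ran from 41.3 FPKM in PBS tumors to 47.2 FPKM in M5@NKMOF-101-[Mn] tumors.

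Larp4b was measured at 2.32, 2.98 and 3.07 FPKM in PBS tumors, at 2.76, 2.71 and 2.95 in NKMOF-101-[Mn] tumors and at 2.60, 2.79 and 2.66 in M5@NKMOF-101-[Mn] tumors. With PS473 it was measured at 2.83, 2.88 and 2.29 FPKM in the free form, at 2.62, 2.39 and 2.67 with polymers and at 2.62, 2.77 and 2.46 in the framework. The arms overlapped, with 8 of the 9 PS473 values inside the range of the others, and the lowest and highest values of the 18 were a Free PS473 and a PBS tumor. The mean was 2.62 ± 0.201 FPKM with PS473 and 2.76 ± 0.228 FPKM without it (SD, n = 9 each). The log2 fold change was −0.056 ± 0.054 (SE; 95% interval −0.17 to 0.060; limma, Benjamini-Hochberg adjusted p = 1.00; two-sided exact permutation p = 0.179).

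Exoc3l4, with the longest match around the GU and its site in coding sequence, was measured at 1.92, 1.85 and 1.29 FPKM in PBS tumors, at 1.41, 1.53 and 2.14 in NKMOF-101-[Mn] tumors and at 2.30, 1.95 and 2.18 in M5@NKMOF-101-[Mn] tumors. It was measured at 2.02, 1.59 and 1.85 FPKM in Free PS473 tumors, at 1.35, 1.85 and 2.33 in PS473@CPs tumors and at 1.83, 2.08 and 1.66 in PS473@NKMOF-101-[Mn] tumors. The group means ran from 1.69 FPKM in PBS tumors to 2.14 FPKM in M5@NKMOF-101-[Mn] tumors, and the SD within a group reached 0.487 FPKM in PS473@CPs tumors. The mean was 1.84 ± 0.287 FPKM with PS473 and 1.84 ± 0.357 FPKM without it (SD, n = 9 each). The log2 fold change was 0.0038 ± 0.083 (SE; 95% interval −0.17 to 0.18; limma, Benjamini-Hochberg adjusted p = 1.00; two-sided exact permutation p = 0.962).

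Cep83os, the noncoding RNA that starts beside Cep83 on the opposite strand, was measured at 3.24, 2.99 and 2.92 FPKM in PBS tumors, at 2.80, 3.47 and 2.31 in NKMOF-101-[Mn] tumors and at 2.73, 3.54 and 2.89 in M5@NKMOF-101-[Mn] tumors. It was measured at 2.65, 2.89 and 2.99 FPKM in Free PS473 tumors, at 2.95, 1.90 and 3.25 in PS473@CPs tumors and at 2.64, 4.00 and 2.41 in PS473@NKMOF-101-[Mn] tumors. Both the lowest and the highest value were in tumors given PS473. The mean was 2.86 ± 0.582 FPKM with PS473 and 2.99 ± 0.384 FPKM without it (SD, n = 9 each). The log2 fold change was −0.057 ± 0.094 (SE; 95% interval −0.26 to 0.14; limma, Benjamini-Hochberg adjusted p = 1.00; two-sided exact permutation p = 0.522).

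Cep83 itself, which encodes a protein of the centriole's distal appendages needed for cilium formation, lies 78 bases away. It averaged 5.15 ± 0.544 FPKM with PS473 and 5.03 ± 0.670 FPKM without it (SD, n = 9 each), with a log2 fold change of 0.032 (limma, Benjamini-Hochberg adjusted p = 1.00). Over the 18 tumors, which share libraries and scaling, Pearson's r of Cep83os with Cep83 was 0.051. The described library preparation does not mark strand, so reads of Cep83os and of Gm49167, which overlaps it on the opposite strand, cannot be told apart.

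The noncoding 3830408C21Rik was measured at 0.539, 0.608 and 0.362 FPKM in PBS tumors, at 0.413, 0.581 and 0.519 in NKMOF-101-[Mn] tumors and at 0.888, 0.694 and 0.426 in M5@NKMOF-101-[Mn] tumors. It was measured at 0.524, 0.575 and 0.623 FPKM in Free PS473 tumors, at 0.575, 0.762 and 0.538 in PS473@CPs tumors and at 0.746, 0.765 and 0.258 in PS473@NKMOF-101-[Mn] tumors. The 3 PS473@NKMOF-101-[Mn] tumors held the lowest value of all 18 and a pair near the top, so this group had the largest SD, 0.288 FPKM. In a fit with a minimum mean of 0.1 FPKM, the log2 fold change between the arms was 0.034 ± 0.075 (SE; 95% interval −0.13 to 0.19; limma, Benjamini-Hochberg adjusted p = 1.00; two-sided exact permutation p = 0.636). It overlaps Gm48684 on the same strand and lies 427 bases from Kif2a, which encodes a kinesin that takes apart microtubule ends. Kif2a averaged 5.45 ± 0.410 FPKM with PS473 and 5.75 ± 0.356 FPKM without it (SD, n = 9 each; log2 fold change −0.067, limma, Benjamini-Hochberg adjusted p = 1.00), and its Pearson's r with 3830408C21Rik over the 18 tumors was −0.17.

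Arhgap26 was measured at 0.245, 0.224 and 0.233 FPKM in PBS tumors, at 0.262, 0.243 and 0.256 in NKMOF-101-[Mn] tumors and at 0.252, 0.243 and 0.200 in M5@NKMOF-101-[Mn] tumors. It was measured at 0.235, 0.238 and 0.197 FPKM in Free PS473 tumors, at 0.183, 0.193 and 0.263 in PS473@CPs tumors and at 0.257, 0.217 and 0.140 in PS473@NKMOF-101-[Mn] tumors. The 3 groups given PS473 had the 3 lowest means, 0.223, 0.213 and 0.205 FPKM, against 0.232 to 0.254 in the others, and 4 of the 9 PS473 values lay inside the range of the other arm. The mean was 0.214 ± 0.0395 FPKM with PS473 and 0.240 ± 0.0189 FPKM without it (SD, n = 9 each). In the fit with a minimum mean of 0.1 FPKM the log2 fold change was −0.031 ± 0.031 (SE; 95% interval −0.098 to 0.035; limma, Benjamini-Hochberg adjusted p = 1.00; two-sided exact permutation p = 0.0900), and with 0.1 added in place of 1 it was −0.12 (adjusted p = 1.00).

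**Figure D2:**
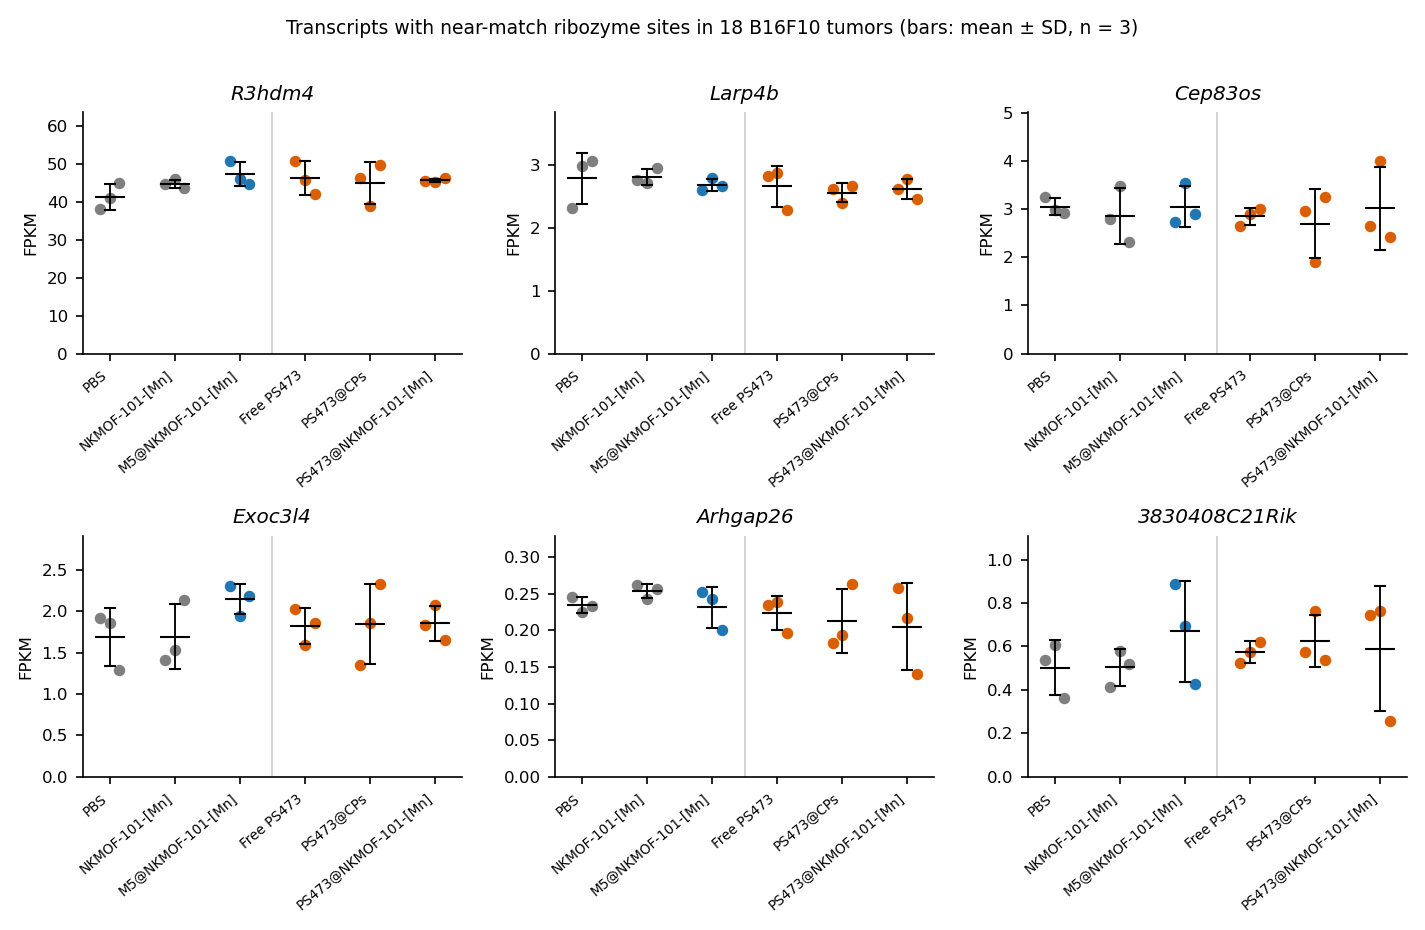
FPKM of the 6 genes in each tumor (points), by group, with the mean and SD of the 3 tumors of a group (black). Grey groups received no ribozyme, blue M5 and orange PS473; the 2 arms overlap in every panel, and the axes start at 0.

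Across all genes the comparison of the 9 tumors given PS473 with the other 9 called no gene after adjustment. By limma with Benjamini-Hochberg adjustment, 0 of 12357 genes passed 0.05 (0%), 227 had an unadjusted p under 0.05 (1.84%), and in 0 genes did the 2 arms not overlap (0%). Of the 4 members tested, 0 met any of these rules. Of these 4, 2 had a negative log2 fold change, beside 53.2% of all genes tested, and their median was −0.026 beside −0.0062 for all genes. Their changes were larger in size than those of 37.6% of genes for R3hdm4, 53.4% for Larp4b, 54.2% for Cep83os and 3.67% for Exoc3l4.

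Cd274, the full match, serves as the reference for these sizes. It averaged 16.3 ± 7.61 FPKM with PS473 and 18.3 ± 5.09 FPKM without it (SD, n = 9 each), with values from 9.74 to 32.9 and from 12.3 to 28.2 FPKM. The log2 fold change was −0.22 ± 0.19 (SE; 95% interval −0.64 to 0.20; limma, Benjamini-Hochberg adjusted p = 1.00; two-sided exact permutation p = 0.325). The estimate was −0.029 without the M5 group and −0.087 without PS473@NKMOF-101-[Mn] tumor 3, and leaving out 1 of the other tumors at a time gave up to −0.36 (without PS473@NKMOF-101-[Mn] tumor 2). A lower level of the intended target was not detectable between the arms in these RNA values either. Its interval was wider than that of any of the 6 genes, on a scale where the added 1 narrows intervals at low FPKM. By other measures, the study reported less PD-L1 in excised tumors given PS473@NKMOF-101-[Mn]. These were quantitative PCR, Western blot and immunohistochemistry.

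**Figure D3:**
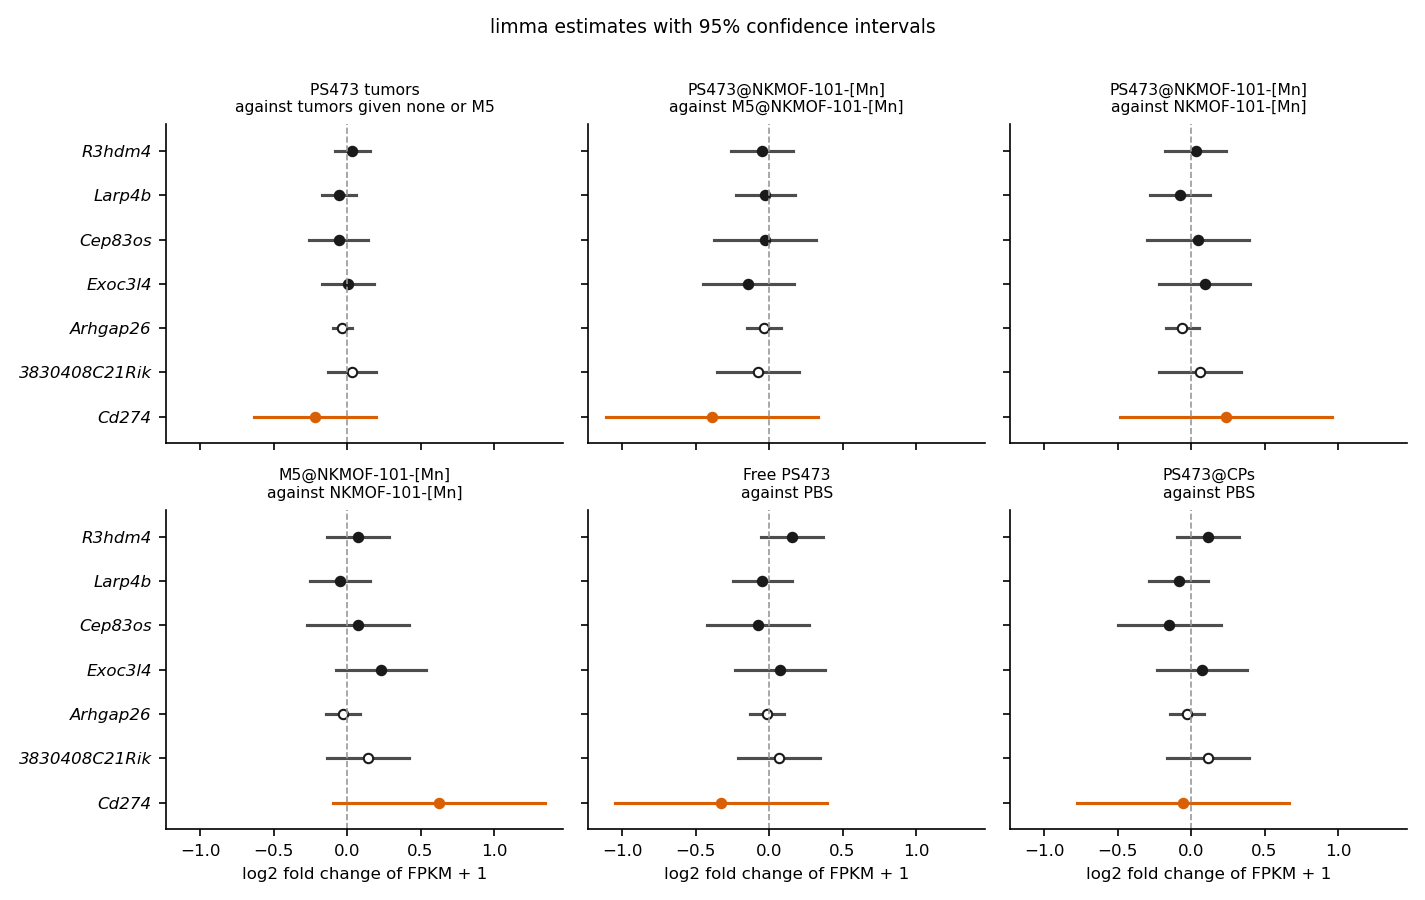
Log2 fold change of FPKM + 1 (points) with the 95% interval (lines) for the 6 genes and Cd274 (orange) in 6 comparisons. Open points are the 2 genes under 1 FPKM, fitted with the lower minimum; every interval includes 0, and those of Cd274 are the widest.

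The closest control for cutting is M5 in the same framework, since M5 has the same bases in the arms over the 16-base target and differs at 2 bases outside them. PS473@NKMOF-101-[Mn] tumors against M5@NKMOF-101-[Mn] tumors gave log2 fold changes of −0.046 for R3hdm4 (95% interval −0.26 to 0.16), −0.026 for Larp4b (−0.23 to 0.18), −0.027 for Cep83os (−0.38 to 0.32) and −0.14 for Exoc3l4 (−0.45 to 0.17). By limma, 0 of 12357 genes passed the adjusted threshold (0%), 73 had an unadjusted p under 0.05 (0.591%), the groups did not overlap in 4.48% of genes, and 0 of the 4 members met any of these. All 4 estimates were negative, as were 53.3% of all genes, but those of Larp4b (0.021) and Cep83os (0.020) were positive after quantile normalization. Arhgap26 (−0.032) and 3830408C21Rik (−0.078) were also below 0. Without PS473@NKMOF-101-[Mn] tumor 3, which had the lowest value of both, they were 0.0069 and 0.082.

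Against the empty framework the signs were mixed. Against NKMOF-101-[Mn], the PS473@NKMOF-101-[Mn] estimates were 0.031 for R3hdm4, −0.074 for Larp4b, 0.048 for Cep83os, 0.092 for Exoc3l4, −0.058 for Arhgap26 and 0.064 for 3830408C21Rik. By limma 0 genes passed the adjusted threshold (0%), 284 had an unadjusted p under 0.05 (2.3%), the groups did not overlap in 7.91% of genes, and 0 of 4 members met any of these. For M5@NKMOF-101-[Mn] against NKMOF-101-[Mn], the estimates were 0.077 for R3hdm4, −0.048 for Larp4b, 0.075 for Cep83os and 0.23 for Exoc3l4 (95% interval −0.075 to 0.54). There 0 genes passed the adjusted threshold of limma (0%), 379 had an unadjusted p under 0.05 (3.07%), the groups did not overlap in 15% of genes, and 0 of 4 members met any of these. These comparisons share their groups and are not independent of each other.

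Outside the framework, Free PS473 against PBS gave 0.16 for R3hdm4 (95% interval −0.053 to 0.37), −0.045 for Larp4b, −0.075 for Cep83os and 0.076 for Exoc3l4. By limma 0 genes passed the adjusted threshold (0%), 224 had an unadjusted p under 0.05 (1.81%), the groups did not overlap in 4.91% of genes, and 0 of 4 members met any of these. PS473@CPs against PBS gave 0.11 for R3hdm4, −0.084 for Larp4b, −0.15 for Cep83os (95% interval −0.50 to 0.20) and 0.076 for Exoc3l4. There 0 genes passed the adjusted threshold of limma (0%), 258 had an unadjusted p under 0.05 (2.09%), the groups did not overlap in 5.11% of genes, and 0 of 4 members met any of these. The difference between the framework effect (PS473@NKMOF-101-[Mn] against NKMOF-101-[Mn]) and the free effect (Free PS473 against PBS) was −0.13 ± 0.14 for R3hdm4, −0.029 ± 0.13 for Larp4b, 0.12 ± 0.23 for Cep83os and 0.016 ± 0.20 for Exoc3l4 on the log2 scale (SE; limma interaction, Benjamini-Hochberg adjusted p = 1.00 for each).

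Ordered by their means, the 6 groups overlapped with their neighbours for each of the 6 genes. M5@NKMOF-101-[Mn] had the highest mean of R3hdm4, Cep83os, Exoc3l4 and 3830408C21Rik, and NKMOF-101-[Mn] that of Larp4b and Arhgap26. PBS had the lowest mean of R3hdm4, Exoc3l4 and 3830408C21Rik. Of the 15 pairs of groups, 1 did not overlap for R3hdm4 (PBS below PS473@NKMOF-101-[Mn]), Larp4b (PS473@CPs below NKMOF-101-[Mn]), Exoc3l4 (PBS below M5@NKMOF-101-[Mn]) and Arhgap26 (Free PS473 below NKMOF-101-[Mn]) each, and 0 for Cep83os and 3830408C21Rik. A gene tested had on average 1.13 such pairs.

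The 6 genes were compared with each other and with Cd274 across tumors. Pearson's r of log2(FPKM + 1) between 2 of them lay between −0.17 and 0.42 over the 15 pairs and 18 tumors. With Cd274, the same r was 0.68 for Exoc3l4, 0.56 for Cep83os, 0.40 for 3830408C21Rik, 0.35 for Arhgap26, 0.065 for R3hdm4 and −0.017 for Larp4b. The genes most like each tested member over the 18 tumors, by the same r, were Cul7 (0.861) and Pgap3 (0.857) for R3hdm4, Cdk13 (0.921) and Atp13a3 (0.913) for Larp4b, 2010315B03Rik (0.852) and Steep1 (0.813) for Cep83os, and Cited2 (0.862) and Fam3a (0.834) for Exoc3l4. The tumors share their scaling, and each of these values is the highest or second highest over all other genes tested. With the marker scores (mean log2(FPKM + 1) of a list), r of R3hdm4 was of similar size for all 6 lists: −0.48 for skin epithelium, −0.44 for leukocytes, −0.42 for fibroblasts and for endothelium, 0.42 for the melanocyte lineage and 0.43 for skeletal muscle. The r of Larp4b lay between −0.081 and 0.21 over the 6 lists.

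The relatives of the coding members, without the members themselves, were counted as well. In the comparison of the 9 PS473 tumors with the other 9, 0 of 4 La-related proteins tested (6 listed), 0 of 4 R3H domain proteins (5 listed), 0 of 10 exocyst genes (12 listed) and 0 of 6 Arhgap26 relatives (8 listed) had an unadjusted p under 0.05, beside the 1.84% of all genes. The median log2 fold changes of the lists were −0.065, −0.0025, −0.016 and −0.038, and the largest single values were −0.13 for R3hdm1 and −0.10 for Larp1, a regulator of the translation of ribosomal protein mRNAs.

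Other genes hold sites that match as well as most of the members, or less well. Within 55341 gene names searched, 17 had a best site with 1 or 2 mismatches. The 11 that are no members have 2 mismatches, as do 5 of the 6 members. Of these 11, 7 were in the table and 3 reached a mean of 1 FPKM, with positive log2 fold changes in the comparison of the arms (median 0.074) and 0 past an unadjusted p of 0.05. Over all 7 genes tested with 1 or 2 mismatches the median was 0.011, against −0.026 for the 4 members. A best site with 3 mismatches was found in 162 genes, of which 136 were in the table and 74 were tested. The 74 include Exoc4 of the exocyst list and Cdk13, the gene most like Larp4b above. Of these 74, 58.1% had a negative log2 fold change, beside 53.2% of all genes, and 0 had an unadjusted p under 0.05 in either direction, beside 1.84%. Their median was −0.025 (interquartile range −0.058 to 0.020) and that of all genes −0.0062 (interquartile range −0.061 to 0.044).

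**Figure D4:**
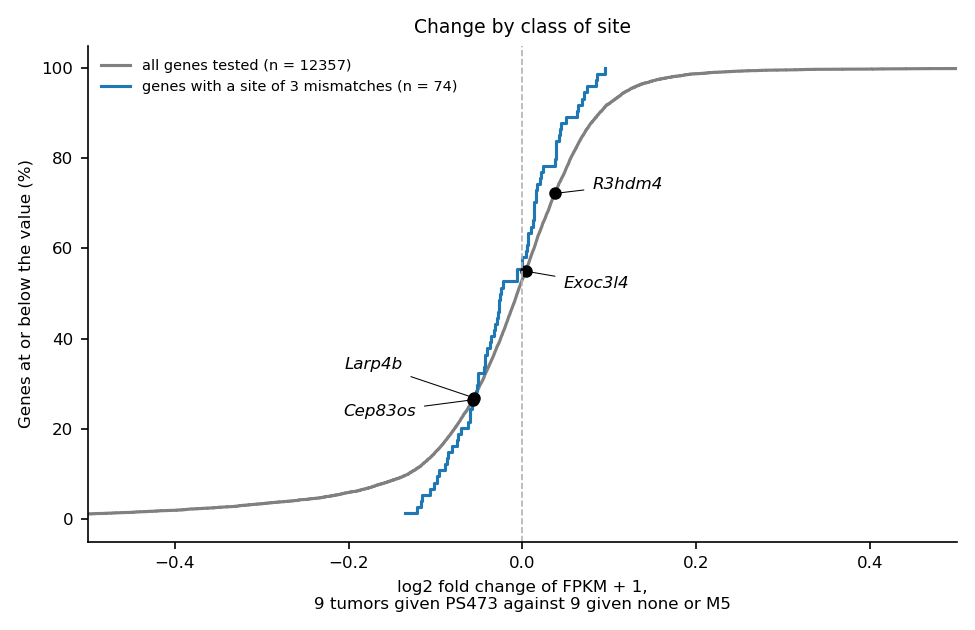
Cumulative share of genes by log2 fold change of FPKM + 1 between the 9 tumors given PS473 and the other 9, for all genes tested (grey) and for the 74 genes with a best site of 3 mismatches (blue). The 4 members tested (black points, on the grey curve) sit between its 26.5 and 72.2 percent marks, and 156 genes beyond −0.5 or 0.5 are outside the axis.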

How the data were processed

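Tumor RNA was enriched for poly(A) and sequenced by the authors, who deposited FPKM values, which divide a gene's fragments by its length in kilobases and by the tumor's assigned fragments in units of 1000000, for 41079 genes in 18 tumors. The submitters' processing notes name the GRCm39 genome, and the aligner and counter are not given in the sources used here. Assigned fragments per tumor were recovered from the commonest low value of FPKM times length. Between 98.2% and 99.0% of low values lay within 0.02 fragments of a multiple of 0.25 fragments and 47.4% to 51.5% of a whole number, so a count model was not used. Sites were searched in GENCODE M21 transcripts (GRCm38) allowing 3 mismatches outside the GU, and genes were joined to the FPKM table by name.

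Values were tested as log2(FPKM + 1) with limma 3.58.1 in R 4.3.3 (trended prior variance, 6 group means, Benjamini-Hochberg adjustment over the 12357 genes whose mean reached 1 FPKM); 18312 genes entered the fit at 0.1 FPKM. Exact permutation tests over all 48620 splits of 9 against 9 were two-sided, with 4.1e-05 the smallest p possible. Alternatives were a pseudocount of 0.1, other filters, quantile and upper-quartile scaling, no trend, a replicate block, a skin covariate, no M5 group, the groups compared alone and leaving out each tumor. Members and lists were chosen with earlier results of these data known. Named genes are the members, Cd274 and the 2 genes most correlated with each member tested. List genes at an unadjusted p under 0.05 were to be named too, of which there were 0. R3hdm1, Larp1 and Kif2a were named after their values were seen, and Exoc4 for its site. No 2 tumors had identical values in 153 pairs. The p-values measure the spread between tumors, 3 per group.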

Additional observations from a re-analysis of the deposited data

Results flagged for a closer look

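The 7 genes were examined in both 9-tumor arms for a value far from the others, by Dixon's ratio of the gap to the whole range. One of 28 lowest or highest values passed the critical value of 0.493 for 9 tumors, and chance marks about 1 in 20 groups. This was 3830408C21Rik at 0.258 FPKM in PS473@NKMOF-101-[Mn] tumor 3, where the next lowest PS473 tumor had 0.524 FPKM and the ratio was 0.525. The value rests on about 10 fragments. The same tumor held the lowest Arhgap26 value (0.140 FPKM) and the lowest Cd274 value (9.74 FPKM) of all 18. Its summed melanocyte markers (7095 FPKM) lay among those of the other tumors, and its summed leukocyte markers were 70.6 FPKM. Their part in the low values was not tested.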

How the results depend on the processing

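No member passed an adjusted p of 0.05 under any alternative; the smallest limma Benjamini-Hochberg adjusted p among 606 member results was 0.609 (Exoc3l4), and 569 of them kept their direction. With no filter on low values, 1 gene was called between the arms, 3 in PS473@NKMOF-101-[Mn] tumors against M5@NKMOF-101-[Mn], 2 in M5@NKMOF-101-[Mn] against NKMOF-101-[Mn] and 2 in Free PS473 against PBS; these (Gm23749, Gm12790, Gm30953, Serpina1a and Gm23598) were above 0 in 3 to 5 tumors. In PS473@CPs against PBS, 1 gene (Gm4786) was called with the groups compared alone, and leaving out a tumor gave 0 to 1 (ND4L, without PS473@CPs tumor 3). All these were named after their values were seen. After quantile normalization, log2 fold changes changed sign for Larp4b to 0.021 (PS473@NKMOF-101-[Mn] tumors against M5@NKMOF-101-[Mn]), 0.051 (against NKMOF-101-[Mn]) and 0.030 (M5@NKMOF-101-[Mn] against NKMOF-101-[Mn]), for Cep83os to 0.020 in the first of these, and for Arhgap26 to 0.0033 (PS473@NKMOF-101-[Mn] against NKMOF-101-[Mn]), 0.013 (M5@NKMOF-101-[Mn] against NKMOF-101-[Mn]), 0.028 (Free PS473 against PBS) and 0.0086 (PS473@CPs against PBS); the cause was not tested. Between the arms, quantile normalization moved Larp4b from −0.056 to −0.012, Cep83os from −0.057 to −0.012, R3hdm4 from 0.037 to 0.023, Exoc3l4 from 0.0038 to 0.053, Arhgap26 from −0.031 to −0.0041 and 3830408C21Rik from 0.034 to 0.067. Without the M5 group R3hdm4 was 0.082, Exoc3l4 0.081, 3830408C21Rik 0.082 and Cd274 −0.029. Leaving out each tumor in turn gave these ranges. Between the arms, R3hdm4 ranged from 0.012 (without PS473@CPs tumor 3) to 0.070 (without PS473@CPs tumor 2), Larp4b from −0.087 (without PBS tumor 1) to −0.031 (without Free PS473 tumor 3), Cep83os from −0.11 (without PS473@NKMOF-101-[Mn] tumor 2) to −0.0017 (without PS473@CPs tumor 2), Arhgap26 from −0.042 to −0.018 and Cd274 from −0.36 to −0.087, each on 1 side of 0; PS473@NKMOF-101-[Mn] tumor 3 was left out at −0.018 and at −0.087. Signs changed elsewhere: Exoc3l4 ranged from −0.036 to 0.047 and 3830408C21Rik from −0.0024 to 0.087. In PS473@NKMOF-101-[Mn] tumors against M5@NKMOF-101-[Mn], R3hdm4 ranged from −0.083 to 0.0065, Larp4b from −0.057 to 0.0063, Cep83os from −0.20 to 0.080, Arhgap26 from −0.064 to 0.0069, 3830408C21Rik from −0.19 to 0.082 and Cd274 from −0.82 to 0.013. Against NKMOF-101-[Mn], Cep83os ranged from −0.12 to 0.16, 3830408C21Rik from −0.020 to 0.22 and Cd274 from −0.19 to 0.64. In M5@NKMOF-101-[Mn] against NKMOF-101-[Mn], Cep83os ranged from −0.030 to 0.19. In Free PS473 against PBS, Larp4b ranged from −0.14 to 0.030, Exoc3l4 from −0.036 to 0.14 and Arhgap26 from −0.022 to 0.0029. In PS473@CPs against PBS, Cep83os ranged from −0.26 to 0.018, Exoc3l4 from −0.045 to 0.21 and Cd274 from −0.37 to 0.14. The replicate numbers did not pair the tumors: deviations from the group means correlated between same-numbered tumors at −0.73 to 0.72 (median −0.019, 45 pairs), and 4 of 18 tumors correlated best with one of their own number. With the replicate block, 0 genes and 0 members were called between the arms and the R3hdm4 estimate was 0.037 (limma adjusted p = 1.00). Depth limits 3830408C21Rik most, where counting alone gives an error of about 20.7% per tumor.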
